A study of Mus musculus with 6 samples.

Results

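Interferon-stimulated genes are the genes that cells switch on when interferons bind their receptors, and 49 of them were followed here across 6 aortas from mice fed a high-fat diet. They were chosen by symbol as known members of the response, 30 as antiviral genes of the type I interferon response, 6 as GTPases typical of interferon-gamma, and 13 that belong to neither class, and the array held 35028 features in all. Each of the 49 had a probe, 46 under its own symbol, while Ifi27, Tgtp1 and Herc6 were listed as Ifi27l1, Tgtp and Herc5. One of the 49, Oasl2, had no value on WT replicate 2 and was left out of the fit, so counts below are over 48 genes unless stated otherwise.

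The values come from 3 ApoE KO aortas and 3 wild type (WT) C57BL6 aortas, each set against a common reference. ApoE KO mice lack apolipoprotein E, a protein that lets the liver take up lipoprotein remnants, and their aortas carried atherosclerotic lesions, whereas the WT aortas had none per the labels. The RNA of an aorta carried Cy5 and was hybridised to a 2-colour Agilent array beside Cy3-labelled RNA of C57BL6 controls, also on the high-fat diet and labelled 24 weeks old. The labels call the samples biological replicates without saying whether aortas were pooled, so p-values measure the spread between these 3 samples a group. The ApoE KO mice were labelled 32 weeks old and the WT mice 24 weeks, while the protocol gives both 16 weeks of diet from 8 weeks of age. Both groups carry the background label C57BL6 db/+, and the Cy5 source names of both read db/+ at 9 weeks, which goes against the genotype and age labels used here. WT replicates 2 and 3 have the same number in that source name, yet their log2 ratios differed with an SD of 0.17, against 0.12 and 0.16 for the other WT pairs. Some array headings, which name no group, mention a vehicle and 24 weeks. Genotype, age, diet length and vehicle therefore cannot be told apart in any difference below.

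Type I interferons, such as interferon-alpha and interferon-beta, bind the IFNAR receptor, and the kinases JAK1 and TYK2 then activate a complex that holds STAT2 and IRF9 and binds interferon-stimulated response elements (ISREs) in promoters. Interferon-gamma, made chiefly by T and natural killer cells, binds the IFNGR receptor and acts through gamma-activated sites (GAS) in promoters. Many genes answer both kinds of interferon, and in atherosclerotic arteries macrophages, smooth muscle cells and endothelial cells all carry the receptors.

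Promoter sequences show how closely the classes share these elements. RefSeq windows of 300 bases, from 250 before to 50 after a transcript's start (build GRCm38.p6), were found for 36 of the 48 genes, with 44 windows in all. An ISRE was searched on both strands as GAAANNGAAA, whose reverse complement is TTTCNNTTTC, and a GAS as TTCNNNGAA, which reads the same on both strands; matches of 1 motif may overlap each other. The ISRE letters stood in 22 of the 44 windows (50%), belonging to 21 genes, against 3.44% of 32851 windows of all genes. The GAS letters stood in 10 windows (22.7%) against 8.3% of all. All 5 GTPases with a window held the ISRE letters, as did 12 of 21 type I antiviral genes and 4 of 10 other members. The GAS letters were held by 2 of the 5 GTPases, 4 of the 21 type I antiviral genes and 4 of the 10 other members. The GTPases were Igtp with TTCTAGGAA and Tgtp1 with TTCCAGGAA, in both cases ending 2 bases before the ISRE letters. The type I antiviral gene Bst2 also held TTCCAGGAA beside its ISRE letters. These are matches of letters, not measured binding sites. The stretches below, upstream of each start and shown 5′ to 3′ on the gene's strand, carry 1 ISRE match in capitals. They are given for 4 antiviral genes that were higher in the ApoE KO aortas, for Ifit1, which did not pass the test, and for the 5 GTPases. Their places are chr4:156200861-156200910 (minus strand) for Isg15, chr8:71537567-71537616 (minus) for Bst2, chr12:26456543-26456592 (minus) for Rsad2 and chr5:120777705-120777754 (minus) for Oas3. Those of the rest are chr19:34640784-34640833 (plus) for Ifit1, chr3:142620584-142620633 (plus) for Gbp2, chr3:142559979-142560028 (plus) for Gbp3, chr11:58199502-58199551 (plus) for Igtp, chr11:48871421-48871470 (minus) for Irgm1 and chr11:48992294-48992343 (minus) for Tgtp1.
Isg15: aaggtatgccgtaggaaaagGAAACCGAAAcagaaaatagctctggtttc
Bst2: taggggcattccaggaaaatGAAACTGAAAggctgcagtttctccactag
Rsad2: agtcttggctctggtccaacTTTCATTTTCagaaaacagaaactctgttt
Oas3: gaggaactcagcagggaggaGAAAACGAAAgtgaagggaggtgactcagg
Ifit1: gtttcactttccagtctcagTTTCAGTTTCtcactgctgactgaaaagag
Gbp2: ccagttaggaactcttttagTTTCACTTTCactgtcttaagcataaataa
Gbp3: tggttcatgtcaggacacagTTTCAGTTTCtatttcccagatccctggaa
Igtp: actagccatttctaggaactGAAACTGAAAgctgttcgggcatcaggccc
Irgm1: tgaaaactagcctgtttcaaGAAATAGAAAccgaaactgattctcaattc
Tgtp1: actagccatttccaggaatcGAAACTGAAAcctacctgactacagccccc
Bst2, Igtp and Tgtp1 all carry the capital letters GAAACTGAAA, yet the first passed the test below and the other 2 did not.

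Values below are log2 ratios of an aorta's RNA over the reference, and a log2 fold change is the ApoE KO mean minus the WT mean with its standard error (n = 3 per group). A gene passed the test at a Benjamini-Hochberg adjusted p under 0.05 in limma, fitted over all 35028 features. A probe's level is its reference intensity in the authors' arbitrary units, raised or lowered by the mean ratio. The deposited intensities are written in steps of 0.01, so that ratios of dim probes are coarse and many are exactly 0 (36.2 to 59% of ratios on an array). An array gave values for 39480 to 39551 probes, and precision is limited by having 3 arrays a group. Apoe itself had log2 ratios of -1.31, -1.21 and -1.31 in the knockout and 0.00, -0.32 and 0.12 in WT aortas. Of 10 smooth muscle markers 1, Des, had a level under 0.1, and their summed level over the reference was 0.707 to 0.807 in the ApoE KO and 1.17 to 1.26 in the WT aortas.

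More interferon-stimulated genes were higher than lower in the ApoE KO aortas, most of them by less than 2-fold. Of the 48 genes 18 were higher and 1 was lower, where 6.73% of all features were higher and 8% lower. Their median log2 fold change was 0.33, against -0.02 over all features, with a span from -0.14 for Ifit2 to 1.27 for Oas1g. In 34 of the 48 all ApoE KO values lay above all WT values, and in 1 all lay below, against 11% and 18.4% of all features. Among the 21 genes at levels of 0.5 or more, where coarse steps matter less, a fit over the 9034 features of that range called 13 higher and 0 lower, against 19% and 24.5% of those features. The level includes the ApoE KO ratios, so the choice of these genes is not independent of the comparison. Irf9, 1 of the 13, has a reference intensity of 0.483 and reached 0.5 only through its ApoE KO ratios. In these 6 arrays the median member ratio was 0.35, 0.29 and 0.29 on ApoE KO replicates 1 to 3 and 0.00, -0.12 and 0.04 on WT replicates 1 to 3. The number of calls leaned on each array: leaving out any 1 ApoE KO aorta left 9 or 10 of the 48 called, leaving out WT replicate 1 left 9, and leaving out WT replicate 2 or 3 left 15.

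**Figure D1:**
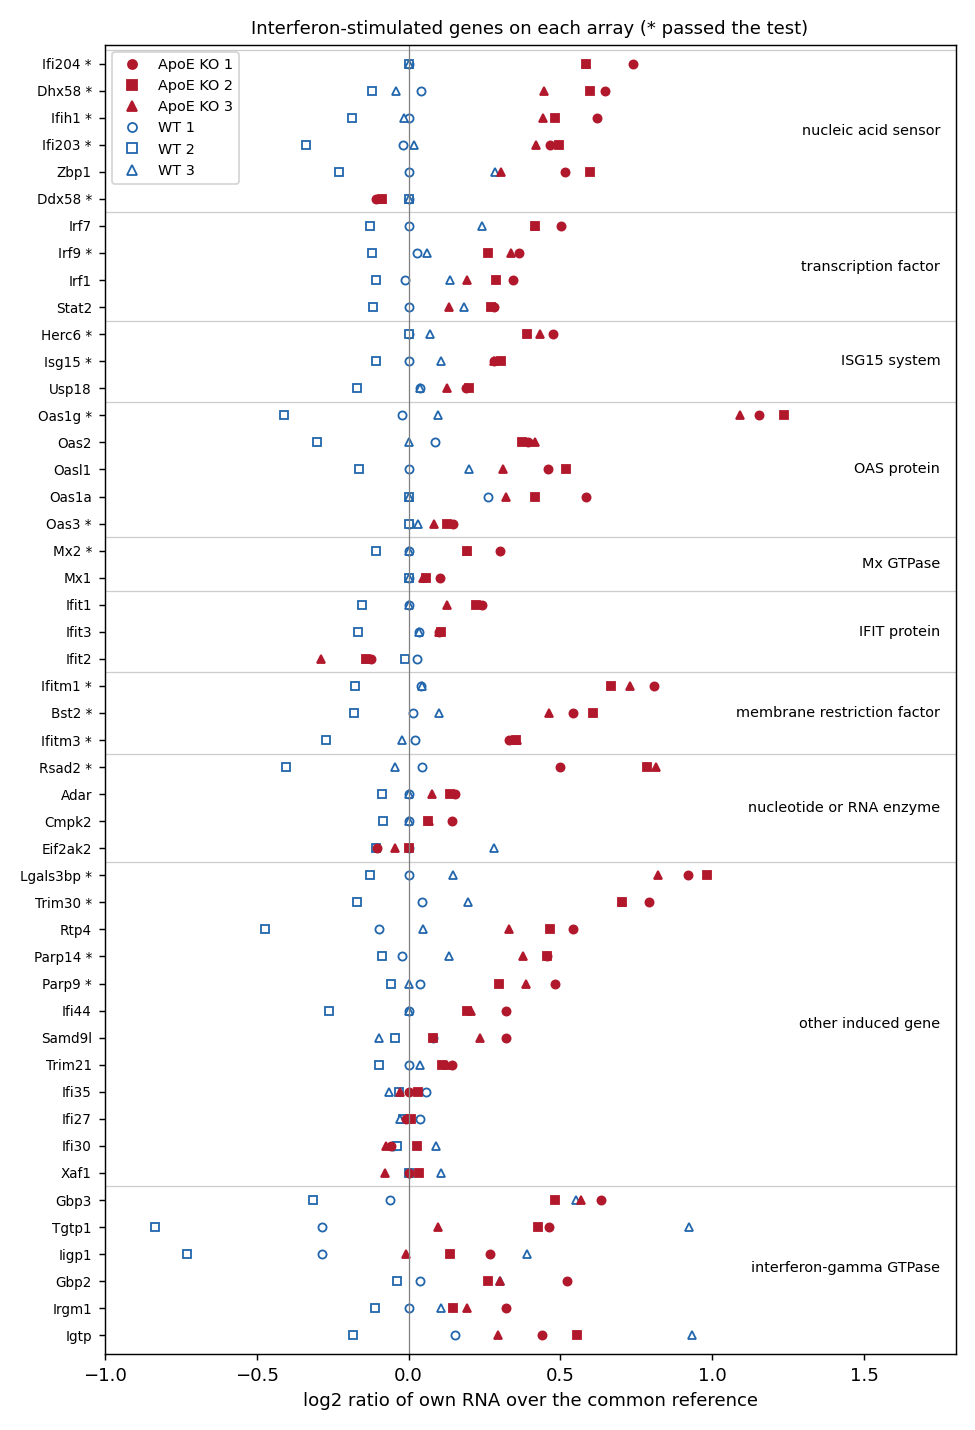
Log2 ratio over the common reference (horizontal axis) of 48 interferon-stimulated genes, grouped by role, on 3 ApoE KO arrays (filled) and 3 WT arrays (open); stars mark genes that passed the test. Most genes show the ApoE KO symbols to the right of the WT symbols by less than 1 log2 unit, while Tgtp1, Iigp1 and Igtp near the bottom show WT symbols on both sides of the ApoE KO ones.

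Of the 6 members that detect foreign or misplaced nucleic acid, 4 were higher and 1 was lower. For this and the role counts below, 6.73% of all features were higher and 8% lower. A count of 0 or 1 among few genes says little beside these shares. Ifi204, a HIN-domain DNA sensor of mouse myeloid cells, had log2 ratios of 0.74, 0.58 and 0.58 on the ApoE KO arrays and exactly 0 on all 3 WT arrays, a fold change of 0.64 ± 0.05 on the log2 scale (adjusted p 0.00255). Its level of 0.0645 is a few steps of the intensity scale, so the equal WT values carry little information on the spread. Dhx58, the RNA helicase LGP2, stood at 0.65, 0.60 and 0.45 against 0.04, -0.12 and -0.04 (0.60 ± 0.07, adjusted p 0.00897), and the lowest knockout value was far above the highest WT value. Ifih1, the sensor MDA5 of long double-stranded RNA, gave 0.62, 0.48 and 0.44 in the knockout and 0.00, -0.18 and -0.02 in WT aortas (0.58 ± 0.08, adjusted p 0.0115), and a dim second probe gave 0.61. For Ifi203, another HIN-domain protein, the values were 0.47, 0.50 and 0.42 against -0.02, -0.34 and 0.02 (0.57 ± 0.11, adjusted p 0.0342). Its 3 other probes, all dim, gave 0.18, 0.15 and 0.06 and did not pass. On the probes fitted, these 4 genes had no overlap between groups. Zbp1, which senses Z-form nucleic acid and can start necroptosis, was at 0.51, 0.60 and 0.31 in the knockout and 0.00, -0.23 and 0.29 in WT aortas, where WT replicate 3 came close to ApoE KO replicate 3 (0.45 ± 0.16, adjusted p 0.164). Ddx58, the sensor RIG-I, was the only member called lower. Its values were -0.11, -0.09 and -0.09 against 3 exact zeros, a difference of 0.82 intensity steps, so that the size of its decrease is not resolved.

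The transcription factors that carry the signal showed smaller differences, and 1 of 4 passed. Irf9, the DNA-binding part of the type I complex, was at 0.36, 0.26 and 0.34 in the ApoE KO aortas and at 0.03, -0.12 and 0.06 in the WT aortas, with a log2 fold change of 0.33 ± 0.06 (adjusted p 0.0297). Irf7, the factor that amplifies interferon-alpha production, was at 0.50, 0.42 and 0.42 against 0.00, -0.13 and 0.24 (0.41 ± 0.10, adjusted p 0.0748). All its knockout values lay above all WT values, and without WT replicate 3 it passed (log2 fold change 0.51, adjusted p 0.0181). Stat2 gave 0.28, 0.27 and 0.13 against 0.00, -0.12 and 0.18, with WT replicate 3 inside the knockout range (0.21 ± 0.09, adjusted p 0.254). Irf1, a factor that interferon-gamma induces, had 2 probes under its symbol that disagreed. The brighter one gave 0.35, 0.29 and 0.19 against -0.01, -0.11 and 0.14 (0.27 ± 0.08, adjusted p 0.1, and 0.0185 in the fit restricted to features at levels of 0.5 or more). The other probe bears the symbol Irf1 in the deposited table but none of the RefSeq transcripts of Irf1, so its target is uncertain. It gave -0.19, -0.07 and -0.19 against -0.04, -0.04 and 0.60, so that WT replicate 3 was high on it. Its log2 fold change was -0.32 ± 0.20.

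Among the OAS proteins, a family that includes synthetases whose product activates the RNA-degrading enzyme RNase L, 2 of 5 fitted members were higher. Oas1g had the largest log2 fold change of the 48 genes, with 1.15, 1.24 and 1.09 on the ApoE KO arrays and -0.02, -0.41 and 0.10 on the WT arrays (1.27 ± 0.15, 2.41-fold, adjusted p 0.00853). The lowest knockout value stood almost 1 log2 unit above the highest WT value. A dim second probe gave 0.30, and averaging its probes Oas1g stood at 0.79, below Rsad2 at 0.83 and Lgals3bp at 0.90. Oas1a, its close copy, had a dim probe with 0.58, 0.42 and 0.32 against 0.26, 0.00 and 0.00 (0.35 ± 0.11, adjusted p 0.117), and probes of such copies may share transcripts. Oas3 was called at 0.15, 0.13 and 0.08 against 0.00, 0.00 and 0.03, which is only 1.08-fold (adjusted p 0.0312), and its second probe gave the same log2 fold change of 0.11. Oas2 (0.46 ± 0.11, adjusted p 0.0621) and Oasl1 (0.42 ± 0.11, adjusted p 0.0856) had non-overlapping groups but did not pass. Oasl2, with 1 WT value missing, went the other way, with -0.23, -0.17 and -0.30 in the knockout against -0.20 in WT replicate 1 and 0.06 in WT replicate 3. Fitted with those 2 WT values, an alternative chosen after the data were seen, its log2 fold change was -0.16 ± 0.10 (adjusted p 0.405).

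The ISG15 system attaches the ubiquitin-like protein ISG15 to other proteins and removes it again. Isg15 had 0.28, 0.31 and 0.28 on the ApoE KO arrays and 0.00, -0.11 and 0.11 on the WT arrays, a log2 fold change of 0.29 ± 0.06 (adjusted p 0.0416), from a dim probe with a level of 0.148. Herc6, the ligase that attaches ISG15 in mice, had 0.48, 0.39 and 0.43 against 0.00, 0.00 and 0.07 (0.41 ± 0.03, adjusted p 0.00304). The groups were clearly apart for Herc6 and closer for Isg15. Usp18, the protease that removes ISG15 and restrains the type I receptor, had 0.19, 0.20 and 0.13 against 0.04, -0.17 and 0.04 (0.20 ± 0.07, adjusted p 0.14).

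All 3 membrane restriction factors, which hold viruses at the cell surface or in endosomes, were higher. Ifitm1 stood at 0.81, 0.67 and 0.73 in the knockout and at 0.04, -0.18 and 0.04 in WT aortas (0.76 ± 0.08, 1.70-fold, adjusted p 0.00578). Bst2, also called tetherin, stood at 0.54, 0.61 and 0.46 against 0.01, -0.18 and 0.10 (0.56 ± 0.09, 1.47-fold, adjusted p 0.0197). Ifitm3 stood at 0.33, 0.35 and 0.36 against 0.02, -0.27 and -0.02 (0.44 ± 0.09, 1.35-fold, adjusted p 0.0375). In each of the 3 genes the knockout values formed a tight group above all WT values.

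Of the 3 IFIT proteins, which bind viral RNA ends and are among the best-known type I targets, 0 passed in limma, with 1 at an unadjusted p under 0.05. Ifit1 was at 0.24, 0.22 and 0.13 in the knockout against 0.00, -0.15 and 0.00 (0.25 ± 0.06, adjusted p 0.0609) from a dim probe. Ifit3 was at 0.10, 0.11 and 0.10 against 0.04, -0.17 and 0.03 (0.14 ± 0.06, adjusted p 0.254). In both genes all knockout values lay above all WT values. The lowest value was that of WT replicate 2, and Ifit3 passed without this array, with a smaller log2 fold change of 0.07 (adjusted p 0.00982). Ifit2 had a bright probe, with -0.12, -0.14 and -0.29 against 0.03, -0.01 and -0.14, overlapping groups and a log2 fold change of -0.14 ± 0.07 (adjusted p 0.254).

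Of the Mx GTPases, which block viral nucleocapsids, Mx2 was higher at 0.30, 0.19 and 0.19 against 0.00, -0.11 and 0.00 (0.26 ± 0.05, adjusted p 0.0296), and Mx1 had 0.10, 0.06 and 0.05 against 3 exact zeros (0.07 ± 0.02, adjusted p 0.06). Both probes were dim, and Mx2 lost its call whichever array was left out. Among enzymes that act on nucleotides or RNA 1 of 4 passed. Rsad2, viperin, which makes a chain-terminating nucleotide, had 0.50, 0.78 and 0.81 against 0.04, -0.40 and -0.04 (0.83 ± 0.16, 1.78-fold, adjusted p 0.0347). Its knockout values were all above its WT values, but it too lost the call whichever array was left out, with log2 fold changes from 0.70 to 0.93. Cmpk2, a mitochondrial nucleotide kinase and its genomic neighbour, had a log2 fold change of 0.12 ± 0.04, Adar, the RNA-editing deaminase, of 0.15 ± 0.03 and Eif2ak2, the kinase PKR, of -0.11 ± 0.11, with adjusted p values of 0.109, 0.057 and 0.541.

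The 12 remaining induced genes held both some of the largest differences and those nearest to 0, with 4 higher. Lgals3bp, a secreted glycoprotein that binds galectins, had 0.92, 0.98 and 0.82 in the knockout against 0.00, -0.13 and 0.15 (0.90 ± 0.09, 1.87-fold, adjusted p 0.00487). Trim30, a TRIM-family regulator of innate signalling in mice whose current symbol is Trim30a, had 0.79, 0.70 and 0.70 against 0.05, -0.17 and 0.20 (0.71 ± 0.10, 1.64-fold, adjusted p 0.0162). For both the knockout values lay over 0.4 log2 units above every WT value. Parp9 and Parp14, members of the ADP-ribosyltransferase family, were higher by 0.39 ± 0.06 (adjusted p 0.0152) and 0.42 ± 0.07 (adjusted p 0.0207). Parp14 stood at 0.46, 0.46 and 0.38 against -0.02, -0.09 and 0.13, and Parp9 at 0.48, 0.30 and 0.39 against 0.04, -0.06 and 0.00, without overlap. Rtp4, a chaperone with antiviral action, had 0.54, 0.47 and 0.33 against -0.10, -0.47 and 0.05 (0.62 ± 0.16, adjusted p 0.0705), and passed in the fit restricted to features at levels of 0.5 or more (adjusted p 0.00651). Trim21, a cytosolic antibody receptor, did so too, at 0.15 ± 0.04 (adjusted p 0.0372 there and 0.0815 over all features), and both genes also passed with array weights (adjusted p 0.046 and 0.0469). Ifi44 (0.33 ± 0.09) and Samd9l (0.23 ± 0.08) did not pass. Ifi30, a lysosomal thiol reductase of antigen-presenting cells, Ifi35, Ifi27 and the pro-apoptotic Xaf1 had log2 fold changes of -0.04, 0.01, 0.00 and -0.05, with overlapping groups in each.

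The GTPases induced by interferon-gamma guard the cell against bacteria and protozoa that live in vacuoles. Gbp2 and Gbp3 are guanylate-binding proteins, and Igtp, Irgm1, Iigp1 and Tgtp1 are immunity-related GTPases. None of the 6 differed between genotypes at an adjusted p under 0.05 in limma, and 1 had an unadjusted p under 0.05. Of all features 14.7% were called in either direction, so 0 calls among 6 genes says little about the class. The median log2 fold change of the GTPases was 0.30, against 0.29 for the 29 type I antiviral genes that were fitted. Of these 29, 10 were higher and 1 lower. The values of the GTPases spread widely among the WT aortas. The median range of the GTPases over the 3 WT arrays was 0.99 log2 units, against 0.20 for the type I antiviral genes, 0.22 for the 13 other members and 0.11 over all features. Over the 3 ApoE KO arrays the median range was 0.26, 0.11, 0.09 and 0.10 in the same order. These ranges are descriptions, and no test compares the classes.

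Tgtp1 varied most among WT aortas. It stood at -0.29, -0.83 and 0.92 on WT replicates 1 to 3 and at 0.46, 0.43 and 0.10 on the ApoE KO arrays (0.39 ± 0.50, adjusted p 0.637). Igtp had 0.15, -0.18 and 0.93 in WT aortas against 0.44, 0.55 and 0.30 (0.13 ± 0.32, adjusted p 0.877). Iigp1 had -0.29, -0.73 and 0.39 against 0.27, 0.14 and -0.01 (0.34 ± 0.31, adjusted p 0.495). In these 3 genes WT replicate 3 lay above every ApoE KO aorta while WT replicates 1 and 2 lay below every one. Gbp3 had -0.06, -0.32 and 0.55 in WT aortas against 0.63, 0.48 and 0.57 (0.50 ± 0.24, adjusted p 0.257). Gbp2 had 0.04, -0.04 and 0.30 against 0.52, 0.26 and 0.30 (0.26 ± 0.12, adjusted p 0.254). Irgm1 had 0.00, -0.11 and 0.11 against 0.32, 0.15 and 0.19 (0.22 ± 0.08, adjusted p 0.153), and was the only 1 of the 6 without overlap. In all 6 GTPases WT replicate 3 was the highest and WT replicate 2 the lowest WT array. Of the 29 type I antiviral genes 13 had their highest WT value on replicate 3 and 20 their lowest on replicate 2. For the 13 other members these counts were 8 and 10, and for all 35028 features 8756 and 5258. A highest or lowest value tied with another, as with the zeros of dim probes, was not counted. At levels of 0.5 or more they were 5 and 6 of 8 type I antiviral genes and 7 and 8 of 9 other members. Over the 9034 features of that range they were 3291 and 2173. A high WT replicate 3 and a low WT replicate 2 were therefore not particular to the GTPases. The WT range exceeded the difference between genotypes for 5 of the 6 GTPases and for 8 of the 29 type I antiviral genes.

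**Figure D2:**
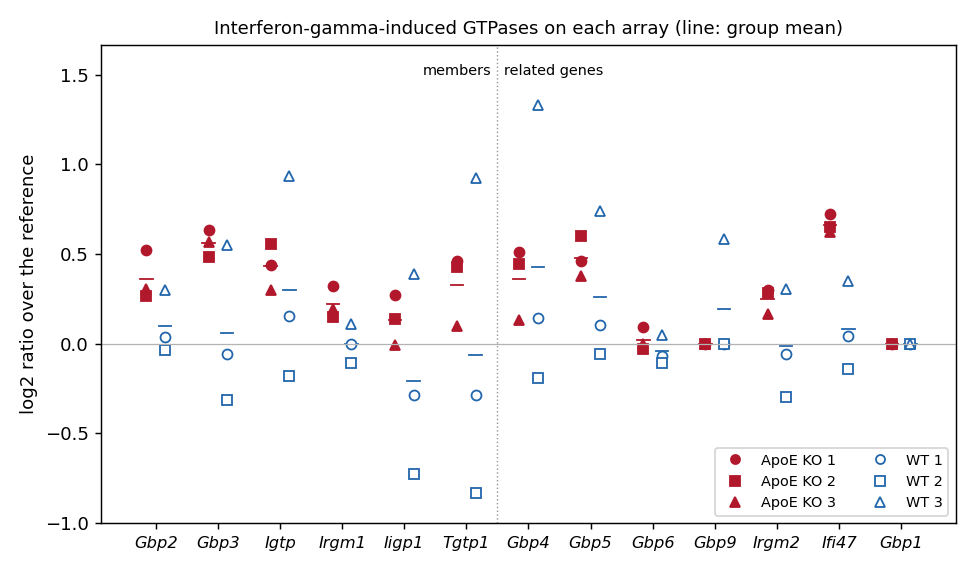
Log2 ratio over the reference (vertical axis) of the 6 GTPases and 7 related genes on each array, with filled ApoE KO symbols, open WT symbols and a line at each group mean. WT replicate 3 (open triangles) is the highest WT array and WT replicate 2 (open squares) the lowest for all 6 members, and for Tgtp1 these 2 arrays stand at 0.92 and -0.83.

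The outcome for the GTPases thus depended on which WT array was in the comparison. Without WT replicate 3 their median log2 fold change was 0.54, and Gbp3 passed at 0.75 (adjusted p 0.0291), while Tgtp1 reached 0.89, Iigp1 0.64 and Igtp 0.44 without passing. Without WT replicate 2 the median was 0.12, Tgtp1 stood at 0.01 and Igtp at -0.11. The type I antiviral median moved between 0.24 and 0.31 over the fits without 1 array. Quantile normalization turned Igtp to -0.27 as well. The 7 other fitted GTPases of the interferon-gamma response list were looked at after the pattern was seen, so they are no independent support for it. WT replicate 3 was the highest WT array for 6 of them and WT replicate 2 the lowest for 5. Gbp4 had 0.14, -0.19 and 1.33 in WT aortas against 0.51, 0.44 and 0.13 in the knockout. Gbp5 had 0.11, -0.06 and 0.74 against 0.46, 0.60 and 0.38, and Irgm2 -0.06, -0.30 and 0.31 against 0.30, 0.28 and 0.17. Ifi47 had 0.04, -0.14 and 0.35, and its knockout values of 0.72, 0.65 and 0.62 all lay higher (0.58 ± 0.14, adjusted p 0.0605). These 4 have the WT order of the members, by wide margins in Gbp4 and Gbp5. Gbp6, a bright probe, had it within a narrow WT range of 0.16, at -0.07, -0.11 and 0.05. The dim Gbp9 had 0, 0 and 0.58, and Gbp1 was at 0 on all 6 arrays.

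**Figure D3:**
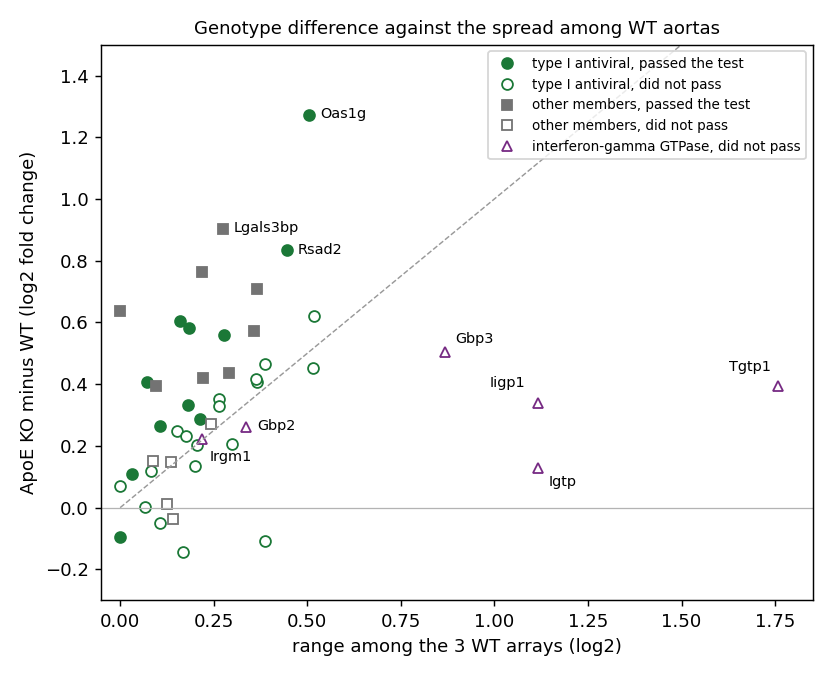
ApoE KO minus WT log2 fold change (vertical axis) against the range over the 3 WT arrays in log2 units (horizontal axis) for 48 genes, with filled symbols for genes that passed the test and a dashed line where both are equal. Gbp3, Igtp, Iigp1 and Tgtp1 lie far to the right of the line, while Oas1g, Lgals3bp and Rsad2 lie above it.

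Markers of several cell types also differed between the groups. For comparison, 6.73% of all features were higher and 8% lower, and 30.9% of those at levels of 0.5 or more were called in either direction. Of 20 macrophage markers 15 were higher and 0 lower, with a median log2 fold change of 1.43. In the fit at levels of 0.5 or more, 13 of 15 were higher and 1, Itgam (-0.29), was lower. The summed level of the 20 over the reference was 3.67 to 4.24 in the ApoE KO and 0.931 to 1.10 in the WT aortas. Summed in the same way, the type I antiviral genes were at 1.21, 1.20 and 1.12 in ApoE KO replicates 1 to 3 and at 1.01, 0.921 and 1.02 in WT replicates 1 to 3. The 13 other members were at 1.49, 1.50 and 1.40 against 0.998, 0.919 and 1.08. Both groups of genes thus stood higher in each knockout aorta, by much less than the macrophage markers. Such sums follow the bright probes, and the rise of the 13 rested mainly on Lgals3bp. The type I antiviral sum holds the bright Ifit2 and Ifi27, which were not higher. Fewer cells of a type and less RNA per cell cannot be told apart in whole aortas, and the part of macrophages in the result was not tested. Of 8 neutrophil markers 3 were higher, with sums of 1.77 to 2.65 in the knockout against 0.961 to 1.13. These sums rested mainly on S100a9, and 4 of the 8 had a level under 0.1. Of 10 endothelial markers 4 were higher, with sums of 1.07 to 1.18 against 0.94 to 1.08. Of 8 fibroblast markers 2 were higher and 1 lower, with sums of 1.70 to 1.87 against 0.936 to 1.07. The higher sums rested mainly on Lum. The median log2 fold change of the 8 was 0.06, with 4 above 0 and 4 below. Of the 10 smooth muscle markers 0 were higher and 7 lower. The part of these cells was not tested either.

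The summed GTPases were at 1.34, 1.27 and 1.11 in the knockout and at 0.875, 0.657 and 1.61 in WT aortas. The highest of all 6 arrays was WT replicate 3, and Tgtp1 and Iigp1 made up most of the sum. For 17 T cell and natural killer cell markers, the cells that make interferon-gamma, the sum was 1.13, 1.26 and 1.07 in the knockout and 0.992, 0.967 and 1.04 in WT aortas. Of these 17, 4 were higher and 0 lower, namely Gzma, Gzmb, Cd5 and Tbx21, where 6.73% of all features were higher. A level under 0.1 was found for 6, namely Cd3d, Cd3g, Cd8a, Ncr1, Gzmb and Prf1. The sum was slightly higher in WT replicate 3 than in the other WT aortas. WT replicate 3 was the highest WT array for 4 of the 17 markers, and their median was 0 on each WT array. Of 7 cardiac muscle markers 1, Nppa, was higher in the knockout, and their sum was high in WT replicate 3, at 1.66 against 0.967 and 0.801 in WT replicates 1 and 2, and stood at 1.07, 2.23 and 1.95 in the knockout. That height in WT replicate 3 rested on 1 bright probe, Myl7, with -0.08, 0.08 and 1.24 on the WT arrays, while the median of the 7 markers was 0.00, -0.71 and 0.00. Their part in the GTPase values was not tested. Plasmacytoid dendritic cells make much type I interferon, and of their 5 fitted markers 0 passed in limma, with 1 at an unadjusted p under 0.05. Siglech, also listed, was not fitted, and 3 (Ccr9, Klk1 and Pacsin1) had a level under 0.1. Cox6a2 had -0.59, 0.43 and 0.67 in the knockout against -0.03, -1.12 and 0.04, close to the values of the cardiac marker Myh6. The list therefore says little about these cells.

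**Figure D4:**
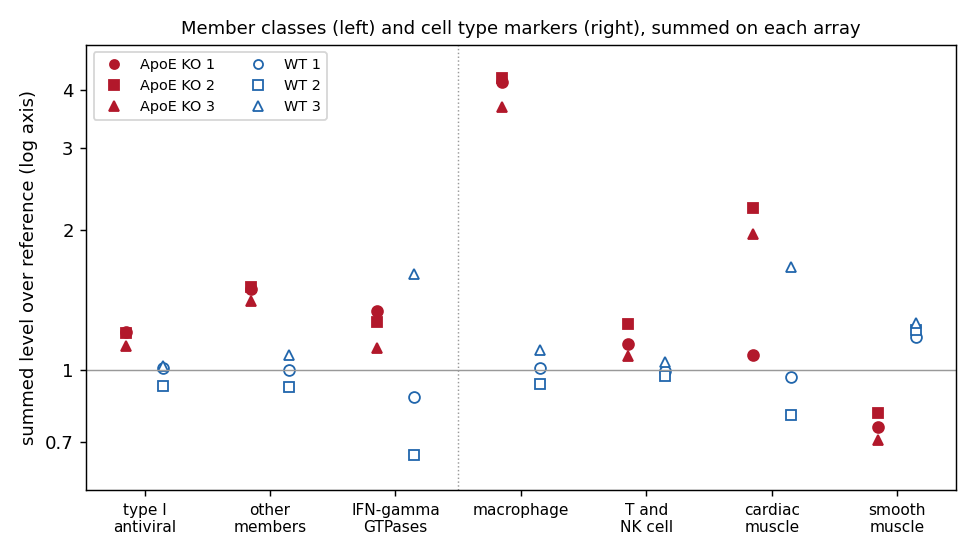
Summed level over the reference on a log axis for the 3 classes of members (left of the dotted line) and 4 lists of cell type markers (right) on each array, with filled ApoE KO and open WT symbols. Macrophage markers stand at 3.67 to 4.24 in the ApoE KO aortas, the antiviral class at 1.12 to 1.21, and the GTPases peak at 1.61 in WT replicate 3.

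Interferons themselves were near the lower end of the measurement. Of 11 ligand genes 0 passed in limma, with 3 at an unadjusted p under 0.05 and a median log2 fold change of -0.02. Ifng had 0.51, 0.36 and 0.19 in the knockout against 3 exact zeros, at a level of 0.0786 (0.36 ± 0.09, adjusted p 0.0663). Ifnb1 was at 0 on each array except WT replicate 2, at -0.19. Ifng was above the reference in all 3 knockout aortas and equal to it, within the rounding, in all 3 WT aortas. With a difference of 2.06 intensity steps, neither its size nor any spread among the WT aortas is resolved.

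Of 11 receptor and JAK-STAT signalling genes 4 were higher, where 6.73% of all features were. In the fit at levels of 0.5 or more 3 of the 6 genes of that range were higher, against 19%. Il10rb, a receptor chain shared by interferon-lambda and interleukin 10, was at 0.99, 0.96 and 0.97 against 0.06, -0.02 and -0.04 (0.97 ± 0.03, adjusted p 0.000458). Ifngr1, the ligand-binding chain for interferon-gamma, was at 0.46, 0.43 and 0.44 against 0.02, -0.01 and 0.01 (0.44 ± 0.01, adjusted p 0.000523). In both genes the 3 values of a group hardly differed from each other. Jak1 was higher by 0.59 ± 0.06 (adjusted p 0.00462) and Ifnar2, at a level of 0.0799, by 0.44 ± 0.07 (adjusted p 0.0214). Ifnar1, the other type I receptor chain, had a log2 fold change of 0.12 ± 0.06 (adjusted p 0.254).

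Of 8 negative regulators 2 were higher and 1 lower. All 3 were among the 6 of these genes at levels of 0.5 or more. In either direction 14.7% of all features were called, and 30.9% of those at such levels. With so few genes the count says little about the list. Socs3, an inhibitor of cytokine receptors, was at 1.55, 1.43 and 1.54 against 0.16, -0.14 and -0.02 (1.50 ± 0.09, adjusted p 0.00142), and the phosphatase gene Ptpn6 at 1.41, 1.46 and 1.29 against 0.02, -0.30 and 0.10 (1.45 ± 0.12, adjusted p 0.00363). Pias1, a SUMO ligase that restrains cytokine signalling, was lower at -0.33 ± 0.05 (adjusted p 0.014). The first 2 differences exceed that of any interferon-stimulated gene above, and all 3 genes had groups well apart.

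Of 18 genes that start interferon production 9 were higher and 0 lower, with a median log2 fold change of 0.20, where 6.73% of all features were higher. Irf8, a factor of myeloid cells, stood at 1.79, 1.69 and 1.66 against 0.16, -0.18 and -0.04 (1.74 ± 0.10, adjusted p 0.00127), and Irf5, which acts below Toll-like receptors, at 1.45, 1.43 and 1.35 against 0.00, -0.26 and 0.00 (1.50 ± 0.09, adjusted p 0.0014). Both log2 fold changes were larger than that of any of the 48 interferon-stimulated genes. Smaller log2 fold changes were those of the ubiquitin ligase gene Trim25 (0.70), the nucleotide-cleaving Samhd1 (0.56), the RNA receptors Tlr7 (0.52) and Tlr3 (0.32), the adaptor Myd88 (0.33), the kinase gene Ikbke (0.26) and the helicase gene Ddx41 (0.15), with adjusted p values between 0.00071 and 0.0272. In 6 of the 18 the log2 fold change was below 0, and in 3 of these, Tlr9 (-0.17, adjusted p 0.0503), Irf3 (-0.07, adjusted p 0.0594) and Trex1 (-0.14, adjusted p 0.175), all knockout values lay below all WT values. The adaptor Mavs stood at -0.06 ± 0.03 (adjusted p 0.254), and the DNA sensor gene Mb21d1 (cGAS) and its adaptor Tmem173 (STING), at -0.02 and -0.03, did not pass either.

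Among other genes of the interferon-gamma response 4 of 19 fitted were higher, against 6.73% of all features, with a median log2 fold change of 0.22. Cxcl10, a chemokine that draws T cells, was at 1.65, 1.46 and 1.02 against 0.23, -0.53 and -0.16 (1.53 ± 0.27, adjusted p 0.0281). Cxcl9, its relative, was at 0.69, 0.21 and 0.00 against 0.00, -0.37 and 0.28 (0.33 ± 0.26, adjusted p 0.495). The groups were apart for the former and overlapped for the latter. Nos2, inducible nitric oxide synthase, was higher by 0.80 ± 0.07 (adjusted p 0.00328), and the immunoproteasome subunits Psmb8 and Psmb10 by 0.33 ± 0.05 and 0.45 ± 0.07 (adjusted p 0.0231 and 0.017).

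**Figure D5:**
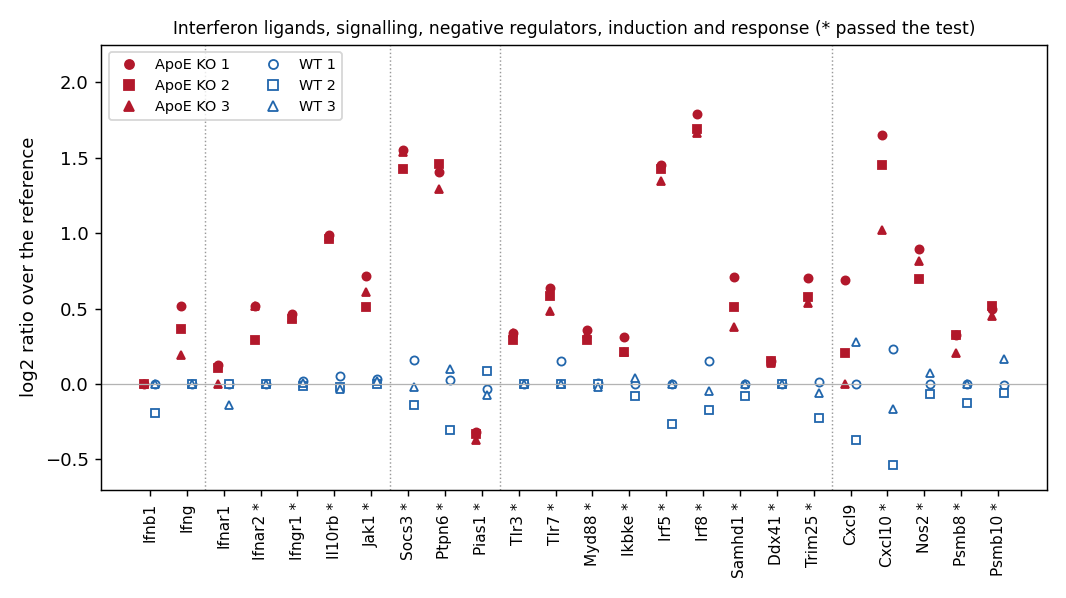
Log2 ratio over the reference (vertical axis) of named interferon pathway genes on each array, in 5 blocks from ligands to response genes, with filled ApoE KO and open WT symbols and stars for genes that passed the test. Irf8, Irf5, Socs3, Ptpn6 and Cxcl10 stand at 1.02 or above on each ApoE KO array, while Cxcl9 overlaps between groups.

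The calls of the 19 members did not hold equally under other choices of arrays. Called in each of the 6 fits that left out 1 array were Herc6, Ifi204, Dhx58, Ifih1, Ifitm1, Lgals3bp, Oas1g and Ddx58, 8 of the 19. Rsad2 and Mx2 lost the call in all 6, and the other 9 in 3 to 5 of them. Herc6, Ifi204 and Ddx58 also passed after quantile normalization, the other 16 did not. For Ifi204 and Ddx58 the 3 WT values are exact zeros set by the rounding, so that keeping the call in these fits is no measure of their stability.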

How the data were processed

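RNA of 3 ApoE KO and 3 WT aortas was measured on 2-colour arrays, grouped by the genotype label of the Cy5 channel. Per the labels' protocols, Trizol-extracted RNA (100 ng) was amplified by more than 1 round of reverse and in vitro transcription. The submitters' processing notes name Agilent Feature Extraction 8.5.1.1, with background correction and dye normalization not given in the sources used here. Per the labels and values, the authors deposited log10 ratios of own RNA over the reference for 39556 probes. A second table by the authors holds each channel's intensity, with a scaling not given in the sources used here, and 12 among its 18 value columns were not used. For 100% of 39485 probes the sorted ratios of the 3 C57BL6-headed arrays, Intensity 2 over Intensity 1, matched the sorted WT values within 0.002 (log10), against 4.88% with the sign turned, which fixes scale and direction for WT; the ApoE KO arrays carry the same dye labels. Whether ratios were centred is unknown; the median of features at levels of 0.5 or more was -0.05 on each ApoE KO array and 0.00, 0.00 and -0.01 on the WT arrays.

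Ratios were converted to log2, 194 probes lacking a value were dropped, probes were named through RefSeq genes (GRCm38.p6), and each gene was represented by its probe of highest level (35028 features, 9034 at levels of 0.5 or more). The level is the mean of the reference intensity and of that intensity times the average ratio. With limma 3.58.1 (R 4.3.3), lmFit and eBayes compared the groups, two-sided, without a block, and the fit was tested on simulated arrays, where a far larger share of the calls was false over all features than among those at levels of 0.5 or more, so calls of dim members are the less certain. All members with a probe are named; of the pathway lists, called genes and 7 fixed genes (1 of them is not reported here), plus, added after values were seen, all 7 fitted GTPases of the interferon-gamma response list, 6 genes that start interferon production and the cardiac gene Myl7; of marker lists, counts and summed levels. Members and lists were chosen with earlier results of these data known. Other single marker genes, such as Lum, were also named after values were seen. Alternatives were centring, quantile normalization, the level minimum, the mean of a gene's probes, every probe on its own, trend with robust eBayes, array weights, a replicate block, leaving out each array and, added later, keeping probes with a missing value.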

Additional observations from a re-analysis of the deposited data

How the results depend on the processing

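Quantile normalization lowered the features called from 5158 to 1651, the interferon-stimulated genes called from 19 to 3, the type I antiviral genes called from 11 to 2, and the median log2 fold changes to 0.228 for all members, 0.331 for the 13 in neither class and 0.22 for the type I antiviral genes; it forces the wider ApoE KO and the narrower WT ratios to 1 distribution. With the replicate block 2582 features, 8 members and 5 type I antiviral genes were called; the cause was not tested. Deviations of same-numbered arrays from their group means correlated at 0.0894, -0.193 and -0.0258, and not every array correlated best with its own number. With so few arrays this cannot decide whether the numbers pair the samples. The numbers are not stated to mark a shared litter or day. At a level of at least 0.5 (fewer genes tested), 5 of 8 type I antiviral genes were called. Irf9 is among these 5 and reached that level only through its ApoE KO ratios. The medians at such levels were 0.395 for all members and 0.445 for type I. The mean of a gene's probes gave a median of 0.299 for the class in neither. Leaving out 1 array left 9 to 15 members and 5 to 9 type I antiviral genes called, 0 to 1 GTPases, 3516 to 4901 features, and a median of 0.232 to 0.369 for all members. Centring turned the calls over all features from 2357 higher and 2801 lower to 2783 and 2322, and called 22 members higher and 1 lower. No called member changed sign; Irf1, Ifi27, Ifi30, Ifi35, Igtp and Eif2ak2, none of them called, changed sign in at least 1 alternative. The number of arrays and the intensity step of 0.01 limit the dim probes, 27 of the 48.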
